A study of Mus musculus with 6 samples.

Results

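The 10 genes described here encode erythroid transcription factors and the erythropoietin receptor: Gata1, Klf1, Tal1, Nfe2, Zfpm1, Gfi1b, Bcl11a, Lmo2, Myb and Epor. They were chosen by name from a table of 54532 genes, and all 10 were found and passed the filter on low values. Their transcripts were measured in cells of CD-1 fetal liver, 3 libraries from embryonic day 18 (E18) and 3 from embryonic day 16 (E16), lettered A, B and C on each day. Both days carry the same genotype, Sm22-Cre/ROSA26RYFP, in which Cre from the Sm22 (Tagln) promoter of smooth muscle and related mesenchyme switches on eYFP. Livers were digested with collagenase and Dispase, and the eYFP-positive cells were sorted. Whether the libraries of a day come from separate litters or pools is not stated, so p-values cover only the spread among libraries, part of which may be technical.

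The fetal liver is the main site of red cell production before birth. GATA1, a zinc finger factor, drives the erythroid programme together with its cofactor FOG1 (Zfpm1) and with a complex of TAL1, LMO2 and LDB1, and KLF1 activates adult beta globin and red cell membrane genes. MYB keeps erythroid progenitors dividing and declines as they mature, and erythropoietin, through its receptor and the kinase JAK2, keeps them alive.

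The samples are labelled mesenchyme, but transcripts of red cells were present at high level in all 6 libraries. Over 35 red cell structural genes (membrane skeleton, globin, haem synthesis and surface proteins) the summed TPM was 29440, 27900 and 20090 in E18 libraries A, B, C, and 12190, 15020 and 13130 in E16 libraries A, B, C. Over 14 mesenchymal markers it was 2671, 5748 and 2181 at E18 and 398, 485 and 781 at E16. Recovered depth was 14587556 to 18281953 reads per library at E18 and 21130205 to 22626877 at E16, so the days differ in depth without overlap. The values of the 10 genes rest on 270 to 10382 reads each. In such bulk samples fewer cells of a type and less RNA per cell cannot be told apart.

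Promoters of 8 of the 10 genes were found in the RefSeq table (GRCm38.p6), each spanning 250 bases before to 50 after a start site; Nfe2 and Lmo2 had no entry. They were searched for the core of the GATA motif, GATAA, or its reverse complement TTATC, because the red cell programme is built on this factor. The promoters of 4 genes held it, each once: Klf1, Tal1 (at the first of its 2 listed starts), Gfi1b and Epor. The same 4 held it with A or T before GATAA. Of all 32851 promoters listed there, 25.4% held the shorter form and 18.6% the longer one. The matches are shown in the direction of the gene with 18 bases on each side, the motif in capitals.

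Klf1: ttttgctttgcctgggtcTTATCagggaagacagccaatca
Tal1: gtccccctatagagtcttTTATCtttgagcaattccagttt
Gfi1b: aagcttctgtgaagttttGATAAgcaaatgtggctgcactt
Epor: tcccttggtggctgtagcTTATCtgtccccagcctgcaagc

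These lie at chr8:84901884-84901924 (plus strand), chr4:115056203-115056243 (plus), chr2:28622079-28622119 (minus) and chr9:21963608-21963648 (minus). The first motif base is 80, 205, 119 and 54 bases before the RefSeq start site of Klf1, Tal1, Gfi1b and Epor, in that order. For Klf1 and Epor these starts differ from the ends of the gene positions given below, which come from GENCODE. Distances from those ends would therefore be others. In the windows of Gata1, Zfpm1, Bcl11a and Myb these letters do not occur. The pattern CCNCNCCC or GGGNGNGG, which contains the kind of CACC sequence that KLF factors bind, occurs in the windows of Gata1, Tal1 (second start), Zfpm1, Gfi1b, Bcl11a, Myb and Epor, and in 49.5% of all promoters. The E-box pattern CANNTG of helix-loop-helix factors occurs in the windows of Gata1, Klf1, Tal1 (first start), Gfi1b, Bcl11a, Myb and Epor, and in 72.3% of all promoters. A match is a description of the letters and not a binding site.

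None of the 10 genes passed the test between the days. Summed over all 10, they stood at 2444 ± 296 TPM at E18 and 2495 ± 383 TPM at E16 (SD, n = 3 each). With limma over all 17824 genes tested, 0 of the 10 passed an adjusted p of 0.05, against 3.47% of all tested genes. At an unadjusted threshold of 0.05, 3 of the 10 passed in limma's test, against 20.9% of all genes, and limma's voom on recovered reads called 1, Myb, against 8.24% of all genes. In 3 of the 10 genes the libraries of the days did not overlap, against 26.5% of all genes; Nfe2 was the higher one at E18, and Epor and Myb the lower ones. Shares of this size are near those of all genes, and an exact permutation of 3 against 3 libraries cannot give a p below 0.1.

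**Figure D1:**
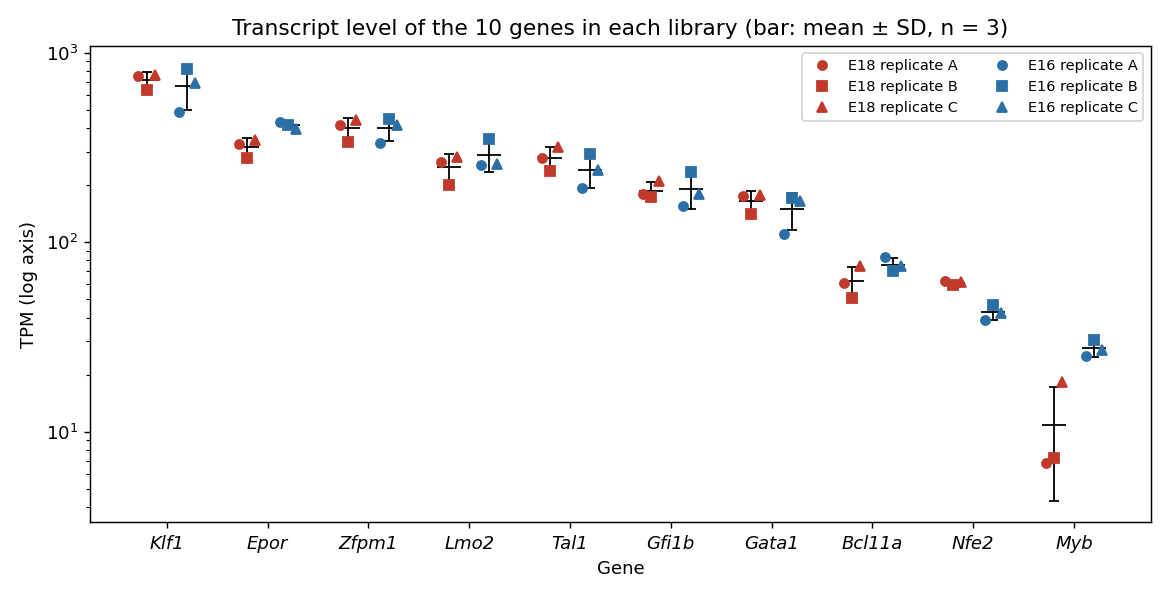
TPM of each gene in each library on a log axis, ordered by mean level at E16, with E18 in red left of E16 in blue; bars are the mean ± SD over 3 libraries. Klf1 is the highest gene on both days and Myb the lowest, and the 2 days are separate in Epor, Nfe2 and Myb.

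GATA1 and its cofactors come first. Gata1 (chromosome X, 7959260 to 7978071, minus strand, mm10) stood at 176, 141 and 178 TPM in E18 libraries A, B, C and at 111, 171 and 164 TPM in E16 libraries A, B, C. The days overlapped, and E16 replicate A was the lowest library. The log2 fold change was 0.17 with a 95% interval of −0.30 to 0.64 (limma adjusted p = 0.706). Zfpm1, which encodes FOG1 (chromosome 8, 122282141 to 122337251, plus strand), had 417, 337 and 440 TPM at E18 and 335, 446 and 417 TPM at E16. Its log2 fold change was −0.00, with an interval of −0.43 to 0.42 (limma adjusted p = 0.995). Gfi1b, a zinc finger repressor needed for red cells and platelets (chromosome 2, 28609450 to 28621982, minus strand), had 179, 172 and 210 TPM at E18 against 156, 234 and 179 TPM at E16, and its log2 interval ran from −0.43 to 0.42. In each of these 3 genes E16 replicates A and B held the lowest and the highest E16 value.

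Tal1 and Lmo2 encode the helix-loop-helix factor and the LIM bridging protein of the same complex. Tal1 (chromosome 4, 115056426 to 115071755, plus strand) had 279, 237 and 317 TPM at E18 and 192, 291 and 241 TPM at E16 (log2 difference 0.21 ± 0.19, SE; adjusted p by limma 0.614). Lmo2 (chromosome 2, 103957986 to 103981878, plus strand) had 265, 201 and 280 TPM at E18 and 255, 352 and 259 TPM at E16 (log2 difference −0.21 ± 0.19, SE; adjusted p by limma 0.615). The fitted folds of these partners had opposite signs, and the days overlapped in both. The Lmo2 level was highest in E16 replicate B and lowest in E18 replicate B.

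Klf1 (chromosome 8, 84901928 to 84905291, plus strand) was the most abundant of the 10 on both days by TPM, a scale that takes gene length into account. It stood at 750, 632 and 765 TPM at E18 and 487, 820 and 691 TPM at E16, and its log2 interval ran from −0.42 to 0.68 (limma adjusted p = 0.810). The E16 libraries span the E18 libraries completely. Nfe2 encodes the large subunit of NF-E2, which pairs with small MAF proteins on globin and platelet genes (chromosome 15, 103248212 to 103258403, minus strand). It had 62.3, 59.6 and 61.6 TPM at E18 and 39.0, 46.7 and 42.3 TPM at E16. All 3 E18 libraries lay above all 3 E16 libraries, with little spread within E18. The ratio of mean TPM was 1.43 and the log2 fold change 0.51 ± 0.12 (SE), but limma's adjusted p was 0.0659.

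Bcl11a and Myb act on the switch of globin genes and on progenitors. Bcl11a encodes a repressor of embryonic and, in humans, fetal globin genes (chromosome 11, 24078056 to 24174123, plus strand). Its level was 60.7, 50.5 and 74.9 TPM at E18 and 83.3, 70.1 and 74.8 TPM at E16. E18 replicate C lay among the E16 libraries, and the log2 difference was −0.30 ± 0.17 (SE), with an adjusted p by limma of 0.375. An opposite-strand gene covers 2.4% of the Bcl11a exon length.

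Myb (chromosome 10, 21124935 to 21160984, minus strand) showed the largest difference of the 10. Its level was 6.85, 7.27 and 18.3 TPM in E18 libraries A, B, C and 25.0, 30.6 and 26.9 TPM in E16 libraries A, B, C. All E18 libraries lay below all E16 libraries, E18 replicate C nearest to them. These values rest on 270, 297 and 901 reads at E18 and on 1524, 1817 and 1557 reads at E16. The ratio of mean TPM was 0.392 and the log2 fold change −1.40 ± 0.35 (SE), with limma's adjusted p at 0.0752. Without E18 replicate C the log2 fold change was −1.82 and limma's adjusted p 0.0289, and voom on recovered reads gave −1.49 with limma's adjusted p at 0.0180. Over 17 alternatives the adjusted p ran from 0.0180 to 0.212 and was under 0.05 in 3. An opposite-strand gene, Gm26577, covers 6.26% of the Myb exon length, and the strand setting of the counting is not given in the sources used here.

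Epor encodes the receptor for erythropoietin (chromosome 9, 21958897 to 21963506, minus strand). It had 331, 278 and 344 TPM at E18 and 430, 416 and 398 TPM at E16. Every E18 library lay below every E16 library, and the E16 libraries were within a narrow range. The ratio of mean TPM was 0.767 and the log2 fold change −0.39 ± 0.14 (SE), with a 95% interval of −0.72 to −0.05 and limma's adjusted p at 0.182. Its promoter window held the GATAA match shown above nearest to the start site.

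By mean level, Klf1 was first on both days, and Bcl11a and Nfe2 stood above Myb, which was last. Bcl11a lay above Nfe2 in 1 of 3 E18 libraries and in 3 of 3 E16 libraries. Epor ranked behind Zfpm1 at E18 with 318 ± 35.1 TPM and was second at E16 with 414 ± 15.9 TPM (SD, n = 3 each). Zfpm1 lay above Epor in 3 of 3 E18 libraries, and Epor above Zfpm1 in 1 of 3 E16 libraries. At E18 Klf1 and Zfpm1, Gata1 and Bcl11a, and Nfe2 and Myb were neighbours whose libraries did not overlap, and the other neighbours overlapped. At E16 the neighbours that did not overlap were Klf1 and Epor, Gata1 and Bcl11a, Bcl11a and Nfe2, and Nfe2 and Myb.

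Some of the genes varied together over the libraries. Among Gata1, Klf1, Tal1, Zfpm1 and Gfi1b, Pearson's r of log2(TPM + 1) over the 6 libraries was 0.73 to 0.97 in 10 pairs. Among Myb, Epor and Bcl11a it was 0.83 to 0.89 in 3 pairs, and between these sets −0.23 to 0.33 in 15 pairs. Nfe2 ran against the second set, with r of −0.84 to −0.67. Lmo2 was left out of both sets and varied with each of them. Its r was 0.44 to 0.77 with genes of the first and 0.53 to 0.67 with genes of the second. These are descriptions over 6 points that share 2 days and the scaling of each library, and the sets were seen in the data. Gm26917, mitochondrial and small RNA genes take part of the TPM of each library. Rescaling without them multiplies TPM by 2.015 in E16 A, the largest factor, and by 1.542 in E16 B, the smallest. In TPM as deposited, without this rescaling, the genes of the first set were all lowest in E16 A. The part of this scaling in the sets was not tested.

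**Figure D2:**
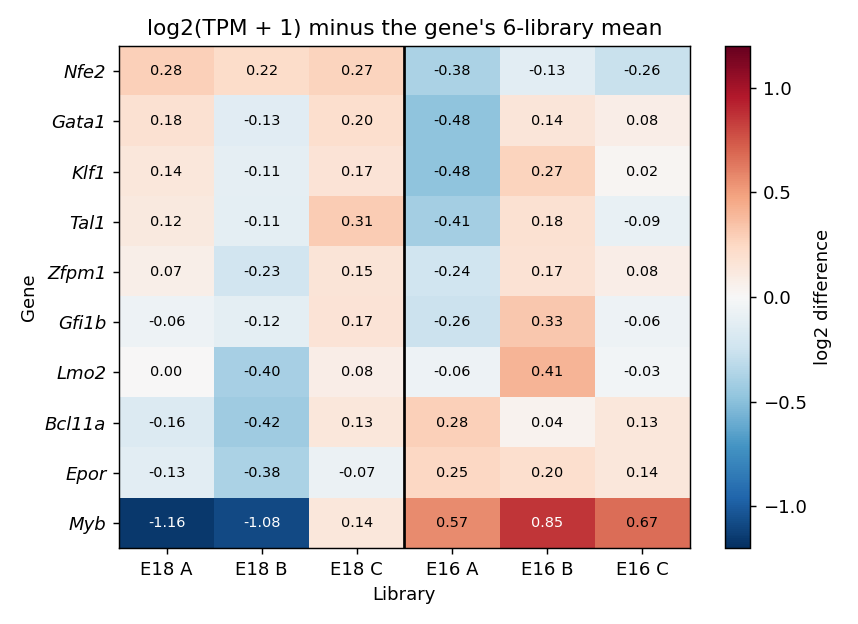
Each cell gives log2(TPM + 1) of a gene in a library minus that gene's mean over the 6 libraries, with E18 libraries left of the black line and E16 libraries right of it. Gata1, Klf1 and Tal1 are lowest in E16 A, while Myb is low in E18 A and E18 B and near its own mean in E18 C.

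Over all tested named genes with a mean of at least 10 TPM, the closest patterns were found as follows. Gata1 was most like Rab1a, Inafm2 and Hist1h2bj (r from 0.994 to 0.997), and Klf1 was most like Pafah1b2, Wdhd1 and the cyclin gene Ccna2 (0.992 and above). Nfe2 was most like Snx21, Klf13 and Ifi27 (0.992 to 0.993), Myb like Telo2, Prpf31 and Adprhl2 (0.995 to 0.996), and Epor like Galt, Rpl30 and Mrpl52 (0.992 to 0.995). Tal1 was most like Fbxo3, Sp1 and Hmmr, Zfpm1 like Rfk, Rnf187 and Kif20a, and Gfi1b like Shoc2, Dctn5 and Arpc1a. Bcl11a was most like Snrpa1, Bola2 and Tmem161a, and Lmo2 like Fbxo9, Rabl6 and Nudt5. With 6 libraries and so many genes, r near 1 was found for all 10, so these names describe the libraries alone.

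The red cell structural genes mostly had higher values at E18. Of the 35 red cell structural genes tested, 33 had a positive log2 fold change, with a median of 0.54 against −0.01 for the 10 genes and 0.07 for all tested genes. In 25 of the 35 every E18 library lay above every E16 library, against 18.4% of all genes, and in 0 every E18 library lay below. By limma 2 of 35 were called, Sptb (spectrin beta) and Hba-a2 (an alpha globin), against 3.08% of all genes called higher. Voom on recovered reads called 11 of the 35, against 8.24% of all genes. After quantile normalization limma called 5, against 2.24% of all genes. After rescaling without Gm26917, mitochondrial and small RNA genes it also called 5, against 3.36%. Without E18 replicate C limma called 6 of the 35, against 3.73% of all genes, and without any other single library 0. Alas2, the first enzyme of haem synthesis in red cells, had 218, 241 and 104 TPM at E18 and 67.6, 63.4 and 60.7 TPM at E16. Slc4a1, the band 3 anion exchanger, had 1905, 1933 and 850 TPM at E18 and 693, 562 and 646 TPM at E16. E18 replicate C was the lowest E18 library in Alas2 and Slc4a1 and the highest in Myb. Globin genes have near-identical copies, so Hba-a2 is uncertain.

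The 10 genes were also set against the red cell structural genes. When each library was divided by its median ratio over those 35 genes, the log2 fold change of the median tested gene moved to −0.37, from 0.07 without that scaling. Since 33 of those 35 genes had positive log2 fold changes, the scaling lowers the fold changes of the 10 genes by a similar amount, and the signs that follow are fixed largely by it. Under it 9 of the 10 genes had a negative log2 fold change, against 72.2% of all tested genes. Myb then stood at 5.24, 5.89 and 18.0 scaled TPM at E18 and 32.6, 32.7 and 34.0 at E16, −1.87 on the log2 scale (adjusted p by limma 0.0462). Epor stood at 254, 225 and 339 scaled TPM at E18 and 561, 444 and 503 at E16, −0.90 on the log2 scale (limma adjusted p = 0.0525). Lmo2 (−0.72), Bcl11a (−0.81), Zfpm1 (−0.51), Epor and Myb had E18 libraries that all lay below the E16 libraries, 5 of 10 against 30.4% of all tested genes under the same scaling, and 0 of 10 had E18 libraries all above, against 9.37%. Gata1, Klf1 and Tal1 stood at −0.34, −0.38 and −0.30, with overlapping days, and Nfe2 was at 0.01. Myb was the member that passed limma's adjusted p under this scaling, where 4.63% of all genes did.

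**Figure D3:**
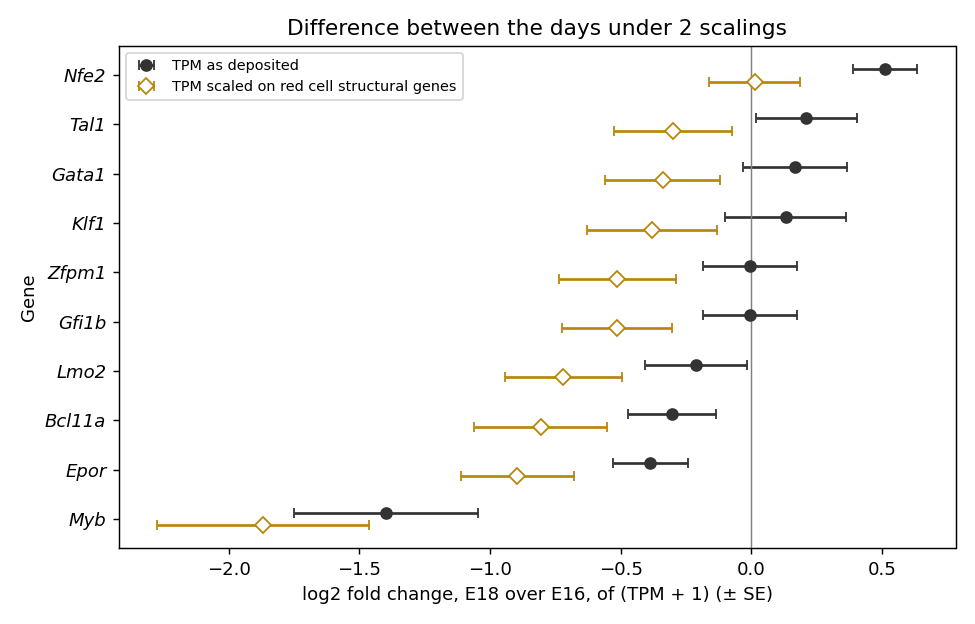
log2 fold change of E18 over E16 for each gene with its standard error, from TPM as deposited (filled circles) and from TPM scaled on the red cell structural genes (open diamonds). The scaling moves each gene to the left by a similar amount, which takes Nfe2 to 0.01 and Myb to −1.87.

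Of 24 tested partners and co-regulators of the GATA1 and TAL1 complex, limma called 0, against 3.47% of all genes. An unadjusted p under 0.05 by limma was found for 3 of them, against 20.9% of all genes, and voom on recovered reads called 2, against 8.24%. In 2 the E18 libraries all lay above the E16 libraries, against 18.4% of all genes, and in 3 all below, against 8.05%. The median log2 fold change was −0.10. Ldb1, whose protein is part of the complex with TAL1 and LMO2, had 208, 208 and 221 TPM at E18. It had 239, 271 and 236 TPM at E16, all E18 libraries below all E16 libraries. Cbfa2t3, the ETO2 corepressor of the complex, had 11.1, 9.43 and 17.3 TPM at E18 and 21.7, 21.3 and 22.6 TPM at E16, again without overlap and without passing the test. Gata2, which precedes Gata1 in progenitors, was near 1 TPM, with 1.08 ± 0.960 TPM at E18 and 0.863 ± 0.411 TPM at E16 (SD, n = 3). Fli1 and Spi1, factors of the platelet and myeloid lineages, were low and higher at E18 without overlap: Fli1 had 4.51 ± 0.0621 TPM at E18 and 1.02 ± 0.844 TPM at E16, and Spi1 had 2.28 ± 0.901 TPM at E18 and 0.408 ± 0.434 TPM at E16 (limma adjusted p = 0.0757 and 0.119).

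Among other regulators of red cells and globin, 24 tested, limma called 6 higher and 2 lower at E18, against 3.08% and 0.387% of all genes. Sox6, a partner of BCL11A in silencing embryonic globin, had 59.2, 63.3 and 42.5 TPM at E18 and 23.6, 18.7 and 24.0 TPM at E16 (1.26 ± 0.19 on the log2 scale, SE; adjusted p by limma 0.0328). Klf13 had 87.0, 74.3 and 97.1 TPM at E18 and 27.9, 45.0 and 36.1 TPM at E16 (1.24 ± 0.20; limma adjusted p = 0.0336). E2f2, a cell cycle factor of terminal erythroid division, rose by 1.24 ± 0.23 on the log2 scale (SE), Rb1, whose protein binds E2F factors, by 0.71 ± 0.15, and the small MAF gene Maff by 2.01 ± 0.39. Klf2 rose by 2.85 ± 0.48 and is also expressed in endothelium. Klf2 and Maff were highest in E18 replicate B, as were the summed mesenchymal markers, whose part in these values was not tested. The fetal-stage genes Igf2bp1 and Lin28b fell, Igf2bp1 to 8.20 ± 2.52 TPM at E18, against 48.6 ± 8.90 TPM at E16 (SD, n = 3). Of the 24, limma called 6 without E18 replicate C, against 3.73% of all genes. Without E16 replicate B it called 1, Igf2bp1, against 0.309% of all genes. It called 0 without any 1 of E18 replicate A, E18 replicate B, E16 replicate A or E16 replicate C. Mafk, Mafg and Zbtb7a, the last a repressor of fetal globin in humans, had overlapping days. Scaled on red cell structural genes, limma called 4 of the 24, Klf2, Maff, Igf2bp1 and Lin28b, against 4.63% of all genes. The log2 fold changes of Sox6, Klf13 and E2f2 were then 0.77, 0.74 and 0.73 (limma adjusted p = 0.0658, 0.0699 and 0.0681).

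Erythropoietin itself (Epo) is listed at 0 in all 6 libraries. Of 26 tested genes of its signalling pathway, 10 had E18 libraries that all lay above the E16 libraries and 0 the reverse, against 18.4% and 8.05% of all genes, and limma called 1, the growth factor antagonist Spry1, while voom on recovered reads called 6, against 8.24% of all genes. Spry1 had 28.1, 45.0 and 34.6 TPM at E18 and 6.20, 13.7 and 8.82 TPM at E16, and it was not called whichever single library was left out (limma adjusted p from 0.0518 to 0.102). The kinase Jak2 had 50.9 ± 4.25 TPM at E18 and 56.1 ± 7.67 TPM at E16, and Stat5b, one of the factors it activates, 78.5 ± 11.9 TPM at E18 and 85.7 ± 16.0 TPM at E16 (SD, n = 3 each), with overlapping libraries in both. Of the 26, 16 had a positive and 10 a negative log2 fold change, with a median of 0.13 against 0.07 for all tested genes. Stat5a and Ptpn6 were at −0.62 and −0.74 on the log2 scale, with overlapping days. A further 5 genes of the list, Pim1, Socs3, Erfe, Cish and Socs2, were chosen after their values were seen. They did not pass the test, and in each the E18 libraries all lay above the E16 libraries. Pim1 had 64.8, 54.6 and 54.6 TPM at E18 and 18.3, 37.3 and 26.5 TPM at E16 (limma adjusted p = 0.0580). Socs3, a feedback inhibitor, had 65.0, 129 and 40.6 TPM at E18 and 7.65, 20.7 and 15.8 TPM at E16 (limma adjusted p = 0.0507). Erfe, the erythroblast hormone that lowers hepcidin, had 50.8, 48.3 and 43.0 TPM at E18 and 27.6, 11.0 and 22.9 TPM at E16 (limma adjusted p = 0.0742). Cish, at 6.03 ± 2.02 TPM at E18 and 2.20 ± 0.550 TPM at E16, and Socs2, at 4.64 ± 1.53 TPM at E18 and 1.84 ± 0.420 TPM at E16 (SD, n = 3 each), were less abundant and also did not overlap. Socs3 and Spry1 were highest in E18 replicate B, as were the summed mesenchymal markers, and the part of the mesenchymal cells in these values was not tested.

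**Figure D4:**
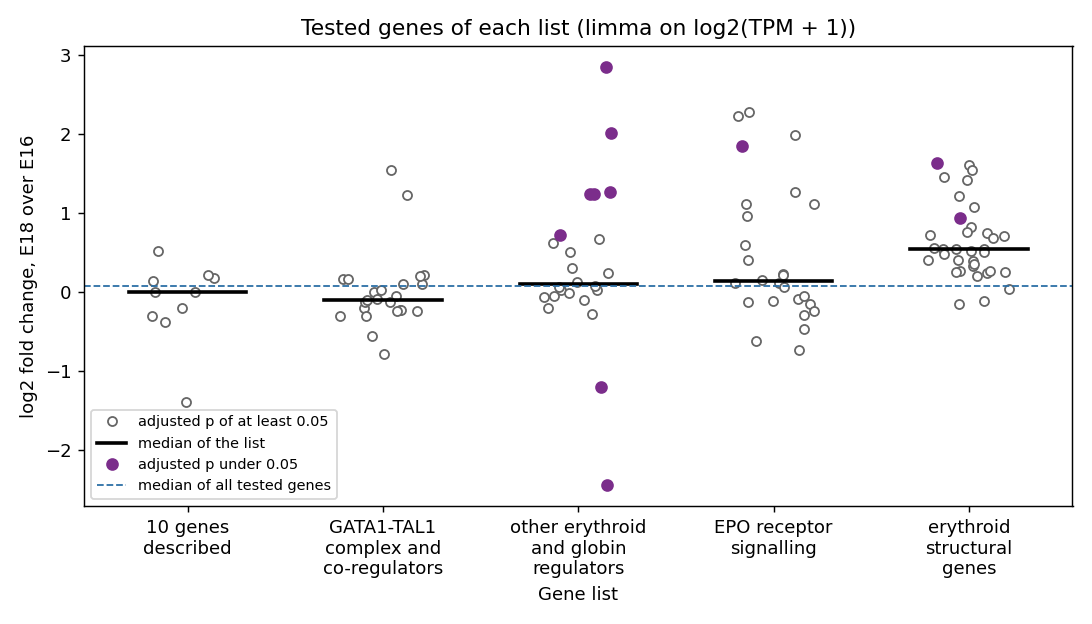
log2 fold change of E18 over E16 for each tested gene of 5 lists; filled points passed an adjusted p of 0.05 in limma's test, black bars are list medians and the dashed line is the median of all tested genes (0.07). The medians of the 10 genes and of their complex partners are −0.01 and −0.10, with single genes such as Myb (−1.40) and Fli1 (1.545) far from 0. The red cell structural genes lie mostly above 0, with a median of 0.54.

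Several of the 10 genes are used by other blood cells, whose markers were measured beside them. The 15 platelet lineage markers summed to 218, 288 and 281 TPM at E18 and 66.6, 171 and 99.4 TPM at E16, without overlap, and Thbs1, which fibroblasts also express, made up 116 ± 59.4 TPM at E18 and 14.1 ± 11.4 TPM at E16 of that (SD, n = 3). Of the 11 tested platelet markers, 2 did not overlap, Thbs1 and Itgb3, both higher at E18, against 18.4% of all genes. Limma called 1 of the 11 higher, Thbs1 (adjusted p = 0.0375), against 3.08% of all genes. The list had 1 call without E18 replicate C or without E16 replicate B, against 3.73% and 0.309% of all genes. It had 0 without any other single library. Pf4 had 10.4, 3.03 and 36.4 TPM at E18 and 1.22, 11.9 and 4.07 TPM at E16. Of the 9 mast cell markers 5, Cpa3 and Fcer1a among them, were listed at 0 in every library, and the list summed to at most 3.34 TPM. The 11 B lymphoid markers, a lineage that uses Bcl11a, summed to 1.82 to 8.47 TPM at E18 and 1.02 to 2.06 TPM at E16, and 7 of them were under 1 TPM throughout, while Cd79a had 0.622, 0.601 and 0 TPM at E18 and 1.81, 0 and 0.954 TPM at E16. The one tested gene of that list, Ebf1, which stromal cells also express, had 1.11, 4.51 and 1.52 TPM at E18 and 0.255, 0.139 and 0.0633 TPM at E16, without overlap (limma adjusted p = 0.112). The pan-leukocyte gene Ptprc was at most 0.143 TPM and the endothelial gene Pecam1 at most 1.13 TPM. The 12 leukocyte and macrophage markers summed to 51.6 to 125 TPM at E18 and 48.3 to 60.5 TPM at E16, most of it Cd68. Of these 12, 7 were under 1 TPM throughout, and 5 of them, Adgre1, C1qa, C1qb, C1qc and Cd5l, were listed at 0 in every library. Of the 5 tested genes of this list limma called 1 higher, the lysozyme gene Lyz2, against 3.08% of all genes. Lyz2 had 7.23, 4.82 and 8.53 TPM at E18 and 0.445, 1.03 and 1.88 TPM at E16 (limma adjusted p = 0.0444). The list had 1 call without E18 replicate C, against 3.73% of all genes, and 0 without any other single library. It also had 0 calls with a pseudocount of 0.1 or 5 and with quantile normalization. The 11 endothelial markers summed to 24.8 to 30.6 TPM at E18 and 27.9 to 41.7 TPM at E16. The part of these cell types in the values of the 10 genes was not tested.

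Among markers of early progenitors, Kit, the receptor for stem cell factor and a partner of erythropoietin signalling, had 68.8, 60.9 and 128 TPM at E18 and 122, 136 and 89.0 TPM at E16. E18 replicate C was high in Kit as in Myb, and the days overlapped. Of the 14 listed progenitor markers, 5 were under 1 TPM in all libraries: Csf2rb, Flt3, Hoxa9, Mecom and Mycn. Of 8 tested progenitor markers limma called 1 higher, Cd34, against 3.08% of all genes. Cd34 rose by 2.61 ± 0.34 (log2 scale, SE) and is also a marker of portal fibroblasts. Cd34 was called without E18 replicate C but not without any other single library. Hepatocyte markers, 12 genes, summed to 382 to 993 TPM at E18 and 2109 to 8876 TPM at E16, highest in E16 replicate B. Limma called 5 of these 12 lower at E18, against 0.387% of all genes, and 11 of 14 mesenchymal markers higher, against 3.08%. Without E18 replicate C these counts were 4 and 10, where 3.73% of all genes were called in either direction. Without any other single library 0 mesenchymal markers were called, and 0 hepatocyte markers except 1 without E16 replicate B.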

How the data were processed

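RNA of eYFP-positive cells sorted from fetal liver was measured in 3 libraries at embryonic day 18 (E18) and 3 at embryonic day 16 (E16). The authors deposited 1 table of TPM, a length-normalized abundance that sums to the same total in every library, for 54532 genes. The submitters' processing notes list HTSeq 0.5.4p3, Bowtie, HISAT2 2.1.0 and FastQC 0.11.7 and the mm10 build. How TPM was computed, with which annotation and strand setting, was not given in the sources used here.

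Identifiers were matched to symbols through a name table, which left 123 without one; all 10 members matched. Positions and merged exon lengths came from GENCODE M21 (GRCm38, the assembly of mm10). TPM times exon length gave whole multiples of 1 read, within 0.05, for 96.8% to 97.1% of values above 0, and the reads behind each value were recovered in this way.

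The 17824 genes that reached 1 TPM in 3 or more of the 6 libraries were compared between the days with limma 3.58.1 in R 4.3.3. The fit used log2(TPM + 1), an intensity trend, 2-sided tests and Benjamini-Hochberg adjustment over all 17824 genes, and genes at adjusted p under 0.05 were called. The steps were tested on simulated data. Named genes were the 10 members, up to 3 tested genes of each comparison list with the smallest p, the 3 genes most like each member over the 6 libraries, and fixed marker genes; where a further gene is named, it is a listed gene chosen after its values were seen. 1 gene that this rule names is not reported here. The members and lists were chosen with earlier results of these data known. 1 listed gene had no match. Figures were drawn with Matplotlib 3.10.9. Alternatives were other pseudocounts, filters and scalings, no trend, the library letter as a block, voom on recovered reads, and leaving out each library.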

Additional observations from a re-analysis of the deposited data

How the results depend on the processing

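Of the 10 genes 0 were called in the fit as reported, and also under 14 of 17 alternatives; 1, Myb each time, was called with scaling on red cell structural genes, with voom on recovered reads and when E18 replicate C was left out, so leaving out single libraries gave 0 to 1. Over all genes limma called 618, and 347 with a pseudocount of 5, 399 with quantile normalization, 406 at a minimum of 5 TPM, 1469 with voom on recovered reads and 0 without a filter (4571 at an unadjusted p under 0.05 by limma). Leaving out 1 library gave 0 to 664 calls: 0 without E18 replicate A, E18 replicate B, E16 replicate A or E16 replicate C, 55 without E16 replicate B, and 664 when E18 replicate C was omitted. With the letter as replicate block limma called 0 genes (3195 at an unadjusted p under 0.05). Deviations from the day means had r of 0.102, −0.139 and −0.117 between same-lettered libraries A, B and C. Between libraries of different letters r ran from −0.147 to 0.22. With 3 libraries a day, such values cannot decide whether the letters pair the samples, and the labels do not say.

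Nfe2, Bcl11a, Lmo2, Myb and Epor kept the sign of their log2 fold change under all 17 alternatives; Nfe2 ran from 0.01 to 0.58 and Epor from −0.90 to −0.29. Genes near 0 changed sign. Gata1 was at −0.34 and Klf1 at −0.38 with scaling on red cell structural genes, and at −0.03 and −0.08 without E16 replicate A; Tal1 was at −0.30 with that scaling. Zfpm1 was at 0.11, 0.08 and 0.03 without E18 replicate B, E16 replicate B and E16 replicate C. Gfi1b was at 0.03 with quantile normalization and at 0.02, 0.05 and 0.16 without E18 replicate A, E18 replicate B and E16 replicate B. Leaving out single libraries, the values ran from −0.03 to 0.28 for Gata1, −0.08 to 0.30 for Klf1, −0.13 to 0.11 for Zfpm1 and −0.14 to 0.16 for Gfi1b. The cause was not tested.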
